A study of Mus musculus with 14 samples.

Results

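Acute kidney injury is followed in patients and in mice by proteins that injured kidneys release, and the genes of 7 of these biomarkers were examined here, namely Havcr1, Lcn2, Spp1, Clu, Cst3, Fabp1 and Vnn1. The 7 genes were taken by symbol from the 24411 genes counted in every library, and all 7 passed the filter on low counts that left 14300 genes for testing. The samples were whole kidneys of male C57/B6 mice aged 8 weeks, with 4 libraries at day 0 and 5 each at day 1 and day 3 after renal ischemia/reperfusion injury (IRI), in which the blood flow to the kidney is stopped and then restored. No transgene, knockout or drug is named for these mice, and whether the day 0 mice had sham surgery is not given in the sources used here. The labels name the libraries as separate samples but do not say that each came from its own mouse, so the p-values measure the spread between these samples.

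Total RNA was extracted with TRIzol and sequenced from Illumina TruSeq libraries, and 12485579 to 20476979 reads per library were counted on genes. The library names end in a number written with 3 digits for replicates 1 and 2 of day 1 and replicates 1, 2 and 3 of day 3. It is written with 1 digit for the remaining 9 libraries, among them the whole of day 0. What this number format marks is not given in the sources used here, so each comparison was also made within the formats of days 1 and 3. Since day 0 holds only 1-digit libraries, a 3-digit library set against day 0 differs in day and format at once, and these cannot be told apart. The summed level of 18 proximal tubule genes was 65464 to 68146 CPM (read counts scaled to the size of the library) at day 0, and all 18 were above 1 CPM in every library.

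Damaged tubule cells lose their brush border, flatten and switch on genes for adhesion, repair and iron binding, and some of the encoded proteins pass into urine or blood. Havcr1 encodes KIM-1, a phosphatidylserine receptor with which surviving proximal tubule cells take up dead cells. Lcn2 encodes NGAL, which binds bacterial siderophores that carry iron and is made by both injured tubules and neutrophils. Spp1 encodes the secreted adhesion protein osteopontin, and Clu encodes clusterin, a secreted chaperone. Cst3 encodes cystatin C, a protease inhibitor made by most cells and read in plasma as a measure of filtration. Fabp1 encodes the liver-type fatty acid binding protein and Vnn1 the pantetheinase vanin-1, and both genes are known targets of the fatty acid receptor PPAR alpha.

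RefSeq promoter windows in the GRCm38.p6 build were at hand for 5 of the 7 genes. The 250 bases before the start are shown for the 3 windows that held a match to a searched motif, with the matches in capitals. They lie at chr2:32387740-32387989 on the minus strand for Lcn2, at chr5:104434861-104435110 on the plus strand for Spp1 and at chr6:71199629-71199878 on the plus strand for Fabp1.
Lcn2: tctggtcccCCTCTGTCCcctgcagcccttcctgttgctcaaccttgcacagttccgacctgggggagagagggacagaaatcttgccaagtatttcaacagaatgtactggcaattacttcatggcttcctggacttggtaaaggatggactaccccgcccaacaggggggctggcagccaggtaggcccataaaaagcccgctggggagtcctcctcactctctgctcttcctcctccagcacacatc
Spp1: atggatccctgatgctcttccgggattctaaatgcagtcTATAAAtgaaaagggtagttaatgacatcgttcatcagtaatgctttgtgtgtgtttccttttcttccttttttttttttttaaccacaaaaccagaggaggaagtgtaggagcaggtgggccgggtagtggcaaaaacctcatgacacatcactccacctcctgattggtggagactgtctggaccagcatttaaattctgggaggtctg
Fabp1: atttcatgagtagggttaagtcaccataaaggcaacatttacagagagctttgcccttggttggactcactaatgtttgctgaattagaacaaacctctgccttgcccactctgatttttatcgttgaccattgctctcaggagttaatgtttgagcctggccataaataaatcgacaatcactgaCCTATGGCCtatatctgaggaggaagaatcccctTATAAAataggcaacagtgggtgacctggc
Both strands were searched for AP-1 (TGANTCA), NF-kB (GGANNNTCC), STAT (TTCNNNGAA), DR1 (GGNCANAGG), the repeat bound by PPAR and its partner RXR, and TATAAA, and none of these motifs contains another. A DR1 match lay on the minus strand from 64 to 56 bases before the start of Fabp1 and from 241 to 233 bases before that of Lcn2, and DR1 was held by 7.15% of the 32851 windows of the table. TATAAA stood from 30 to 25 bases before the start of Fabp1 and from 211 to 206 before that of Spp1, and 12.4% of the windows held it. The windows of the members held no AP-1, NF-kB or STAT match, which 6.75%, 7.27% and 7.02% of all windows held. The matches are descriptions of letters in these windows and not of binding.

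The levels of the members span a wide range within 1 kidney. Per kilobase of exonic sequence in GENCODE M21, Spp1 led at every day, with 628 ± 81.1 CPM per kb (SD, n = 4) at day 0, 10129 ± 6067 (SD, n = 5) at day 1 and 14881 ± 8068 (SD, n = 5) at day 3. At day 0 it was followed by Cst3 at 204 ± 12.6, Havcr1 at 45.9 ± 5.41, Clu at 42.5 ± 8.74, Vnn1 at 23.4 ± 4.27, Fabp1 at 1.16 ± 0.455 and Lcn2 at 0.854 ± 0.265 CPM per kb (SD, n = 4). The ranges of Havcr1 and Clu overlapped, as did those of Fabp1 and Lcn2, and the other neighbours in this order stood apart. Lcn2 moved from last place at day 0 to the place after Spp1 at day 1, with 644 ± 317 CPM per kb (SD, n = 5), and at day 3, with 677 ± 527 (SD, n = 5). At both days the range of Lcn2 overlapped that of the gene next in order, Havcr1 at day 1 and Clu at day 3. Together the 7 genes held 0.144% to 0.181% of the reads on genes at day 0, 0.746% to 4.01% at day 1 and 0.753% to 4.52% at day 3.

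**Figure D1:**
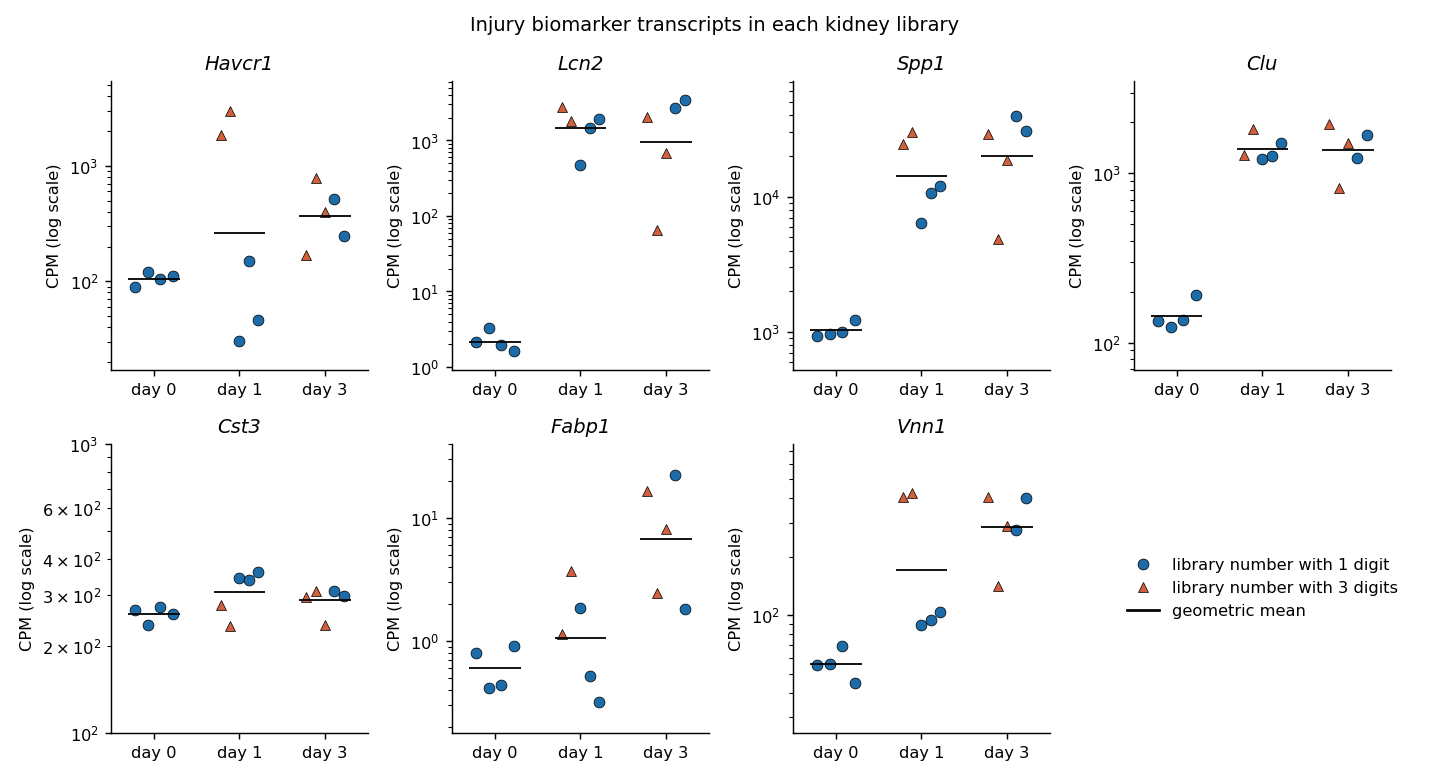
Level of each of the 7 transcripts in every library, in CPM on a log axis, by day after IRI. Circles are libraries with 1-digit numbers, triangles libraries with 3-digit numbers, and bars the geometric mean. Lcn2, Spp1, Clu and Vnn1 lay above the day 0 libraries in every library of days 1 and 3, whereas Havcr1 at day 1 ran from 30.5 to 3014 CPM and Cst3 stayed between 235 and 360 CPM.

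Each day was then compared with day 0 to ask which of the transcripts rose. With edgeR's quasi-likelihood test and Benjamini-Hochberg adjustment over all 14300 genes, where a call is an adjusted p below 0.05, 5 of the 7 transcripts were called higher at day 1 and none was called lower, in a comparison in which 42.1% of all genes tested were called. At day 3, 5 of the 7 were called higher, against 33.3% of all genes. Lcn2, Spp1, Clu and Vnn1 were called at both days, Havcr1 only at day 1 and Fabp1 only at day 3, and Cst3 was called at neither. Both comparisons use the same day 0 libraries. In these bulk samples, fewer cells of a type and less RNA per cell cannot be told apart.

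Lcn2 (chr2:32384633-32388252 in GRCm38) showed the largest change of the 7. It had 1.63, 1.96, 2.13 and 3.24 CPM in the libraries of day 0, which rest on 27 to 55 reads each. At day 1 it had 2777 and 1829 CPM in replicates 1 and 2 and 480, 1446 and 1908 CPM in replicates 3, 4 and 5. At day 3 it had 2063, 66.1, 681, 2672 and 3403 CPM in replicates 1 to 5. The lowest injured library, replicate 2 of day 3, still lay far above every library of day 0. The log2 fold change was 9.55 ± 1.09 (SE) at day 1 (adjusted p = 3.58e-05, edgeR) and 9.63 ± 1.10 at day 3 (adjusted p = 5.13e-05, edgeR). By this value Lcn2 ranked 5 among the 14300 genes at day 1 and 3 at day 3.

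The libraries of day 3 differed more in Lcn2 than in nearly any other gene. The SD of log2 CPM within day 3 was 2.34, above that of 99.8% of the genes tested, against 0.96 within day 1. Genes of neutrophils, which also make Lcn2, were higher after injury as well. The summed level of 11 neutrophil genes was 1.77 to 2.30 CPM at day 0, 51.5 to 224 CPM at day 1 and 19.8 to 495 CPM at day 3. Of the 8 of them that were tested, 7 were called higher at both days, against 42.1% (day 1) and 33.3% (day 3) of all genes called in either direction. Retnlg averaged 0.0158 CPM at day 0 and 10.99 and 20.5 CPM at days 1 and 3, Ngp 0.0158, 4.63 and 13.5 CPM, and Mmp8 0.0298, 3.75 and 4.97 CPM. On the log2 scale S100a8 was higher by 6.55 at day 1 and 7.28 at day 3, and S100a9 by 6.64 and 6.93. At day 3 the library lowest in Lcn2, replicate 2, had the lowest sum and the highest, replicate 5, the highest sum, but replicate 4 had more Lcn2 than replicate 3 with a smaller sum (71.0 against 75.7 CPM). At day 1 Lcn2 was highest in replicate 1, where the sum was 99.1 CPM, and the sum was highest in replicate 5. Elane and Mpo, the genes of neutrophil granule enzymes made in the bone marrow, averaged at most 0.0735 and 0.0405 CPM at any day. The part of neutrophils in the Lcn2 level was not tested.

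Spp1 (chr5:104435118-104441050) was already the most abundant of the panel before injury and rose further. It had 940, 961, 1008 and 1231 CPM at day 0. At day 1 it had 24398 and 29960 CPM in replicates 1 and 2 and 6344, 10694 and 12065 CPM in replicates 3, 4 and 5. At day 3 it had 28989, 4883, 18588, 39738 and 30419 CPM in replicates 1 to 5. Every injured library lay above all 4 of day 0. Its log2 fold change was 4.01 ± 0.59 (SE) at day 1 (adjusted p = 0.000222, edgeR) and 4.57 ± 0.61 at day 3 (adjusted p = 0.000164, edgeR). In single libraries Spp1 took up to 3.22% of the reads on genes at day 1 and 4.01% at day 3, and it ranked between 1 and 8 among all genes by CPM at day 1 and between 1 and 7 at day 3. It ranked between 78 and 105 at day 0. Macrophages also express Spp1, and the summed level of 13 macrophage genes was 135 to 226 CPM at day 0, 90.6 to 160 CPM at day 1 and 133 to 487 CPM at day 3. Of the 13 macrophage genes 2 were called higher and 1 lower at day 1, and 6 higher and 1 lower at day 3, against 42.1% and 33.3% of all genes called, with median log2 fold changes of 0.43 and 1.03. Cd68 was higher by 3.57 at day 1 and 3.53 at day 3 and Itgam by 3.02 and 4.64, Csf1r was lower by 1.65 on the log2 scale at day 1, and Gpnmb was higher by 4.71 at day 3. The sum of the macrophage genes parted by number format at day 3, with 276 to 487 CPM in the 3-digit libraries and 133 and 147 CPM in the 1-digit ones. In the 3-digit libraries 9 were called higher and 1 lower against day 0, where 32.4% of all genes were called. In the 1-digit ones 4 were higher and 3 lower, near the 53.7% of all genes called there. Spp1 was highest in the 1-digit libraries. At day 1 the 1-digit libraries had 2 of the 13 macrophage genes called higher and 6 lower, near the 58.5% of all genes called there. The part of macrophages in the Spp1 level was not tested.

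Clu (chr14:65968483-65981547) gave the most even rise. It had 124, 133, 136 and 190 CPM at day 0. At day 1 its 5 libraries ran only from 1219 to 1825 CPM, with a median of 1278 CPM. At day 3 they ran from 815 to 1950 CPM with a median of 1508 CPM. The groups did not overlap, and replicate 2 of day 3 was again the lowest. On the log2 scale Clu was higher by 3.28 ± 0.26 (SE) at day 1 (adjusted p = 2.85e-06, edgeR) and by 3.30 ± 0.26 at day 3 (adjusted p = 4.19e-06, edgeR). The SD of log2 CPM within day 1 was 0.24, and 26.0% of the genes had a smaller one.

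Havcr1 (chr11:46735080-46779578) did not rise in every injured kidney. It had 89.8, 104, 111 and 119 CPM at day 0. At day 1 it had 1860 and 3014 CPM in replicates 1 and 2, but 30.5, 151 and 45.8 CPM in replicates 3, 4 and 5. Replicates 3 and 5 thus lay below every library of day 0. At day 3 it had 170, 786, 398, 516 and 248 CPM in replicates 1 to 5, all above day 0. Against day 0, Havcr1 at day 1 was higher by 3.27 ± 1.12 on the log2 scale (SE), with an adjusted p of 0.0298 by edgeR's test, although the groups overlapped. The call was lost when any 1 library of day 0, or replicate 1 or 2 of day 1, was left out, with an adjusted p of 0.0553 to 0.0745, and without replicate 2 of day 1 the value was 2.30. At day 3 the log2 fold change was 2.00 ± 1.05, and this was not called (adjusted p = 0.155, edgeR) in the fit in which all days share 1 estimate of the spread. With only the libraries of days 0 and 3 in the fit it was 1.98 and was called (adjusted p = 0.00509, edgeR). The SD of log2 CPM within day 1 was 3.04 for Havcr1, above that of 99.95% of the genes.

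Vnn1 (chr10:23894688-23905343) rose at both days. It had 44.7, 55.6, 56.3 and 69.9 CPM at day 0. At day 1 it had 404 and 424 CPM in replicates 1 and 2 and 89.0, 94.4 and 104 CPM in replicates 3, 4 and 5. At day 3 it had 406, 142, 288, 273 and 403 CPM in replicates 1 to 5. No injured library reached down to day 0. The log2 fold change was 1.98 ± 0.50 (SE) at day 1 (adjusted p = 0.00666, edgeR) and 2.42 ± 0.51 at day 3 (adjusted p = 0.00318, edgeR).

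Fabp1 (chr6:71199827-71205023) was near the lower limit of detection before injury and rose late. It had 0.41, 0.44, 0.81 and 0.91 CPM at day 0, which rest on 7 to 15 reads each. At day 1 it had 1.13, 3.72, 1.84, 0.51 and 0.32 CPM in replicates 1 to 5, on 4 to 82 reads. At day 3 it had 16.7, 2.48, 8.12, 22.4 and 1.84 CPM in replicates 1 to 5, on 25 to 333 reads. The libraries of day 1 overlapped those of day 0, and those of day 3 did not. On the log2 scale the change was 1.25 ± 0.81 (SE) at day 1, which was not called (adjusted p = 0.227, edgeR), and 3.99 ± 0.86 at day 3 (adjusted p = 0.00346, edgeR). At its highest Fabp1 held 0.00226% of the reads on genes. Liver and gut express far more Fabp1 than mouse kidney does. The summed level of 8 hepatocyte genes was 2037 to 2377 CPM at day 0, 270.7 to 3797 CPM at day 1 and 344 to 1209 CPM at day 3, most of it from Cyp2e1, which the proximal tubule also expresses. Of the 5 hepatocyte genes tested, the fibrinogen chain gene Fgb was called higher at both days and Cyp2e1 lower at day 3. Of all genes 42.1% and 33.3% were called. Fgb had at most 0.121 CPM in any library of day 0. At day 3 Fgb was highest in replicate 4, as Fabp1 was. Fgb had 6.24 CPM in replicate 5, where Fabp1 was lowest, and 0.407 CPM in replicate 1. Alb averaged 4.32, 15.5 and 6.27 CPM at days 0, 1 and 3, Ttr 99.0, 114 and 59.4 CPM, and Apoa1 at most 0.425 CPM at any day. The summed level of 6 enterocyte genes was 257 to 292 CPM at day 0, 151 to 287 CPM at day 1 and 171 to 307 CPM at day 3, most of it from Vil1, a brush border gene of the proximal tubule too. Of the other enterocyte genes Fabp2, Lct and Alpi were at 0 reads in all libraries, Sis had reads in 2, and Apoa4 averaged 9.88, 6.13 and 5.89 CPM. The part of liver or gut cells in the Fabp1 level was not tested.

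Cst3 (chr2:148871722-148875692) changed least. It had 236, 259, 267 and 272 CPM at day 0, 235 to 360 CPM at day 1 with a median of 338 CPM, and 236 to 310 CPM at day 3 with a median of 298 CPM. The groups overlapped. Its change was 0.27 ± 0.14 (log2, SE) at day 1 (adjusted p = 0.143, edgeR) and 0.17 ± 0.14 at day 3 (adjusted p = 0.382, edgeR). At day 3 its SD of log2 CPM was 0.16, and only 10.5% of the genes had a smaller one.

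Day 3 was compared with day 1 to ask which transcripts went on changing. Fabp1 alone was called, with a log2 fold change of 2.74 ± 0.72 (SE) and an adjusted p of 0.0218 by edgeR's test, against 15.9% of all genes called. This call was lost without replicate 4 or 5 of day 1 or without replicate 1 or 4 of day 3, with an adjusted p of 0.0508 to 0.0567. It was lost as well with only the libraries of days 1 and 3 in the fit, at 2.75 (adjusted p = 0.061), and with only 3-digit libraries, at 1.89 (adjusted p = 0.119). The other 6 were not called, and their log2 fold changes ran from -1.27 ± 0.95 for Havcr1 to 0.55 ± 0.48 for Spp1. The day 3 and day 1 libraries overlapped in all 7.

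The number format divided the libraries of day 1 for 4 of the 7 transcripts, in a model of 5 groups formed by day and format in which 35.0% of all genes were called. Havcr1 was higher in replicates 1 and 2, the 3-digit libraries, than in replicates 3 to 5 by 5.01 ± 0.69 (log2, SE), with means of 2437 ± 816 (SD, n = 2) and 75.7 ± 65.4 CPM (SD, n = 3) and an adjusted p of 0.00037 by edgeR's test. Vnn1 was higher by 2.11 ± 0.32 (adjusted p = 0.000616, edgeR), with 414 ± 14.3 against 95.9 ± 7.78 CPM. Spp1 was higher by 1.49 ± 0.50 (adjusted p = 0.0344, edgeR), with 27179 ± 3933 against 9701 ± 2987 CPM. Cst3 was lower by 0.44 ± 0.14 on the log2 scale (adjusted p = 0.0321, edgeR), with 256 ± 30.4 against 347 ± 11.5 CPM. The calls of Havcr1 and Vnn1 held when each library of days 1 and 3 was left out in turn. That of Spp1 was lost without any of replicates 1 to 4 of day 1 (adjusted p of 0.0698 to 0.166), and that of Cst3 without any of replicates 2 to 5 of day 1 (0.0508 to 0.264). The call of Cst3 was also lost with total counts in place of TMM scaling, at -0.23 (adjusted p = 0.174), and without the filter on low counts, at -0.44 (adjusted p = 0.0534). Lcn2, Clu and Fabp1 were not called, with differences of 0.85 ± 0.85, 0.22 ± 0.31 and 1.44 ± 1.01. That of Fabp1 was 0.33 without replicate 2 of day 1 and 2.49 without replicate 3.

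Other genes of the kidney parted in the same libraries. The summed level of the 18 proximal tubule genes was 27111 and 41550 CPM in the 3-digit pair of day 1 and 50540 to 66093 CPM in replicates 3 to 5, and 11 of the 18 were called lower and 1 higher in the 3-digit libraries, against 35.0% of all genes called. At day 3 the direction was the opposite, with 10 called higher and none lower, against 18.5% of all genes called. In the difference between the format effects of the days 13 of the 18 were called, all with the lower value at day 1, against 17.6% of all genes. Slc34a1, the phosphate transporter of the proximal tubule, averaged 609 CPM over the 3-digit pair of day 1 and 4975 CPM over replicates 3 to 5 of day 1, against 4776 CPM at day 0. Between the formats of day 1 the summed neutrophil genes overlapped, with 52.2 and 99.1 CPM against 51.5 to 224 CPM. Those of fibroblasts and macrophages did not. The sum of 8 fibroblast genes was 434 and 540 CPM in the 3-digit libraries against 165 to 232 CPM, with 4 of the 8 called higher and none lower. The sum of the 13 macrophage genes was 136 and 160 CPM against 90.6 to 97.6 CPM, with 2 called higher and none lower. The sum of 7 urothelium genes was 14.7 and 99.8 CPM against 5.09 to 7.96 CPM, with 4 called higher and 0 lower. That of 8 collecting duct genes was 872 and 882 CPM against 483 to 709 CPM, with 1 called higher and 0 lower. The part of any of these cell types in the differences of Havcr1, Spp1 and Vnn1 was not tested.

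At day 3 none of the 7 was called between the formats, against 18.5% of all genes. DESeq2 called 0 as well, and 0 of the 7 had an unadjusted p below 0.05 with edgeR. The smallest belonged to Spp1 (0.0648) and Lcn2 (0.0664), whose 3-digit libraries all lay below the 1-digit ones, by 1.00 ± 0.50 and 1.70 ± 0.85 on the log2 scale (adjusted p = 0.165 and 0.168, edgeR). Without replicate 1 of day 3, which has a 3-digit number, both were called, at -1.58 (adjusted p = 0.0268) for Spp1 and -3.02 (adjusted p = 0.0166) for Lcn2. The format effects of the days were also compared with each other, and 17.6% of all genes were called in that test. The effect at day 1 minus that at day 3 was 4.77 ± 0.89 for Havcr1 (adjusted p = 0.00387, edgeR), 2.49 ± 0.71 for Spp1 (adjusted p = 0.0282) and 2.39 ± 0.45 for Vnn1 (adjusted p = 0.00401). It was not called for Lcn2 (2.55 ± 1.20, adjusted p = 0.157), Clu, Cst3 or Fabp1.

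**Figure D2:**
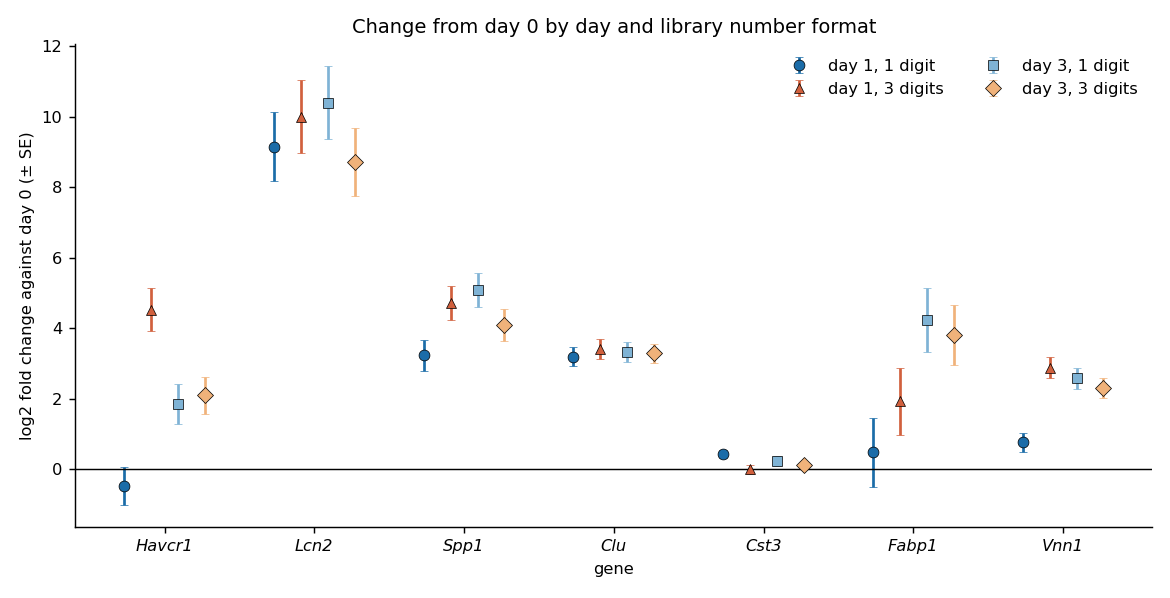
Log2 fold change of each transcript against day 0, with its standard error, for the 1-digit and 3-digit libraries of days 1 and 3. Havcr1 was at -0.48 in the 1-digit and 4.52 in the 3-digit libraries of day 1, while the 4 values of Clu lay between 3.19 and 3.41.

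Set against day 0, the 1-digit libraries of day 1 showed a rise in 5 of the 7, where 58.5% of all genes were called. These were Lcn2 (9.15 ± 0.98, adjusted p = 9.08e-06, edgeR), Spp1 (3.23 ± 0.44), Clu (3.19 ± 0.27), Vnn1 (0.76 ± 0.27) and Cst3 (0.43 ± 0.12, adjusted p = 0.00768, edgeR). Havcr1 was at -0.48 ± 0.53 there (adjusted p = 0.454, edgeR) and Fabp1 at 0.47 ± 0.98. The 3-digit libraries of day 1 also showed a rise in 5 of the 7, where 41.6% of all genes were called. There Havcr1 was 4.52 ± 0.60 above day 0 (adjusted p = 0.000116, edgeR) and Spp1 4.71 ± 0.49, Clu 3.41 ± 0.29 and Vnn1 2.87 ± 0.30, Lcn2 was called as well (adjusted p = 1.93e-05, edgeR), and Cst3 was at -0.01 ± 0.14.

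Both formats of day 3 gave 6 of 7 called higher against day 0, all but Cst3, where 53.7% (1-digit) and 32.4% (3-digit) of all genes were called. Havcr1 was among them, at 1.85 ± 0.57 in the 1-digit libraries (adjusted p = 0.0154, edgeR) and 2.09 ± 0.53 in the 3-digit ones (adjusted p = 0.00927, edgeR), although it was not called when the formats were pooled. From day 1 to day 3, Havcr1 went up in the 1-digit libraries by 2.33 ± 0.63 (adjusted p = 0.0135, edgeR), where 32.0% of all genes were called, with Spp1 (1.85 ± 0.50), Vnn1 (1.82 ± 0.32) and Fabp1 (3.75 ± 0.99) also called higher. In the 3-digit libraries it fell by 2.43 on the log2 scale (SE 0.63, adjusted p = 0.0237, edgeR) and was the only member called, against 13.9% of all genes. The pooled value of day 3 against day 1 therefore averages values of opposite sign for Havcr1.

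Lcn2 and Havcr1, the most used markers of tubular injury, were set side by side in each library. Per kilobase, Havcr1 exceeded Lcn2 in every library of day 0, by 41.8 to 77.4 times. In the 1-digit libraries of day 1 Lcn2 exceeded Havcr1 by 8.45 to 36.7 times, whereas the 3-digit ones had ratios of Lcn2 to Havcr1 of 1.32 and 0.535. At day 3 this ratio was 10.7, 0.0741, 1.51, 4.56 and 12.1 in replicates 1 to 5. Replicate 2 of day 3 thus had the lowest Lcn2 of its day (66.1 CPM) with the highest Havcr1 (786 CPM). It also had the lowest Spp1, Clu and Vnn1 of day 3, and its summed proximal tubule genes, at 37041 CPM, were the highest of day 3, where the other libraries had 15595 to 24433 CPM.

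**Figure D3:**
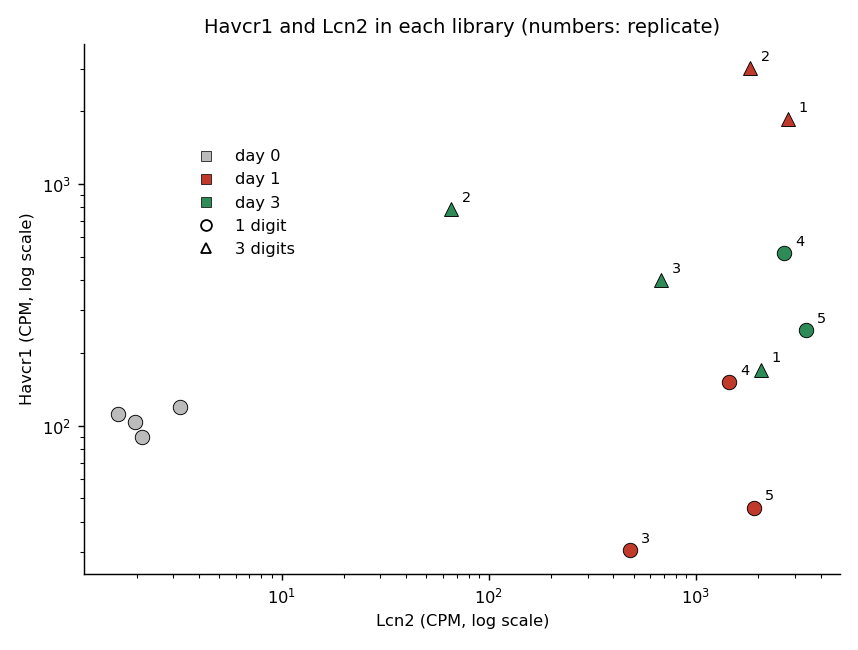
Havcr1 against Lcn2 in each library, in CPM on log axes, with colour for the day, circles for 1-digit and triangles for 3-digit library numbers and the replicate number beside each point of days 1 and 3. All libraries of days 1 and 3 lie to the right of day 0 in Lcn2, while replicates 3 and 5 of day 1 lie below day 0 in Havcr1.

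Havcr1 belongs to the TIM gene family, of which the kidney libraries also held Timd2 and Havcr2. Timd2, the closest relative of Havcr1 in the mouse, had 54.8 to 78.4 CPM at day 0. At day 1 it had 538 and 551 CPM in replicates 1 and 2 and 90.2, 140 and 76.0 CPM in replicates 3 to 5, so that it parted by format as Havcr1 did. It was called higher at day 1 (1.96 ± 0.55 on the log2 scale, adjusted p = 0.0119, edgeR) and between the formats of day 1 (2.42 ± 0.25, adjusted p = 0.000115, edgeR), and was not called at day 3 (0.35 ± 0.53). Only uniquely mapped reads were counted, so reads that mapped to more than 1 place, such as to both of these genes, were left out. Whether any read of 1 of these genes was placed on the other was not tested. Havcr2, which encodes the immune receptor TIM-3, was called higher at both days, by 1.86 and 2.78, and averaged 1.41 and 1.44 CPM in the formats of day 1.

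**Figure D4:**
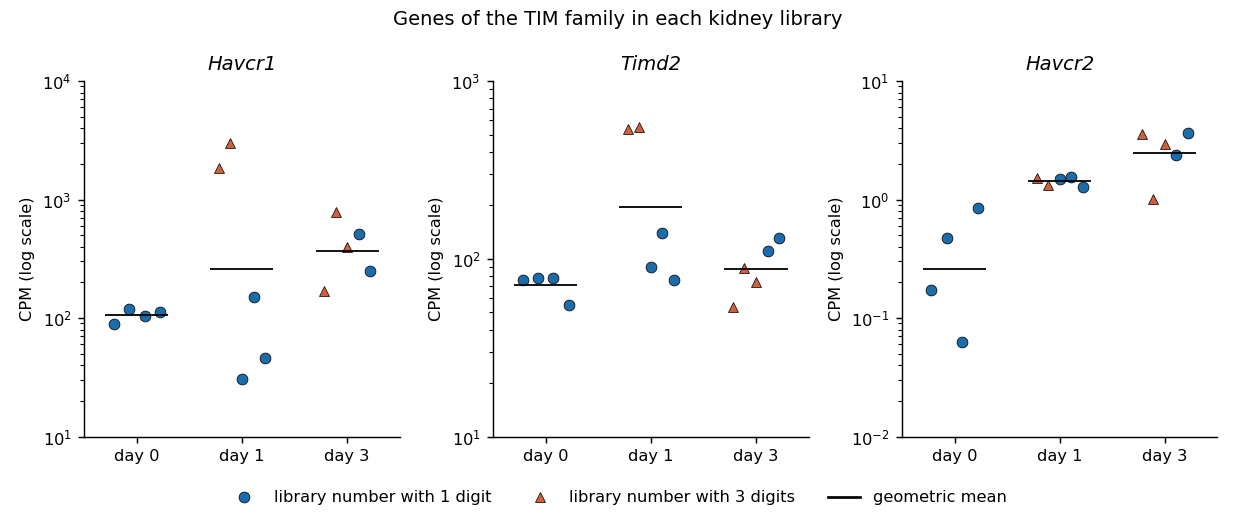
CPM of Havcr1, Timd2 and Havcr2 in each library on log axes, with circles for 1-digit and triangles for 3-digit library numbers and bars for the geometric mean. Both 3-digit libraries of day 1 stand above all others for Havcr1 and Timd2, whereas the 5 libraries of day 1 lie between 1.29 and 1.54 CPM for Havcr2.

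The genes most like each member were found by the root mean square difference in log2 CPM over the 14 libraries, after each gene was centred on its own mean, as a description. For Havcr1 they were Vtcn1 (0.82), C730036E19Rik (0.94) and Slc34a2 (0.99), and Slc34a2 averaged 80.7 CPM over replicates 1 and 2 of day 1 and 7.40 CPM over replicates 3 to 5. For Lcn2 they were Krt20 (1.32), Timp1 (1.34) and Sprr2f (1.47), of which 1 remained with a prior count of 0.5 in place of 2. For Spp1 they were Sbsn (0.59), Anxa3 (0.62) and Ccr1 (0.63), and for Clu they were Slc25a24 (0.31), Sdc1 (0.40) and Arl4c (0.41). For Cst3 they were Wtap (0.08), Oaz2 (0.09) and Pfdn5 (0.11), for Fabp1 Col3a1 (0.84), Ugt1a1 (0.86) and Dnm3os (0.86), and for Vnn1 Pea15a (0.31), Susd1 (0.35) and Mgst1 (0.38). Among the 7 themselves the smallest difference was that of Spp1 and Clu (0.75) and the largest that of Lcn2 and Cst3 (4.23).

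Other genes of injured tubule cells moved with the panel. Of a list of 20, 17 were called higher at day 1 and 18 at day 3, with none lower, against 42.1% and 33.3% of all genes called in either direction. Their median log2 fold changes were 3.05 and 2.59, against 0.01 and 0.05 over all genes. Krt20, an intermediate filament of stressed epithelium, went from 0.862 to 709 CPM at day 1 (9.68 on the log2 scale) and 282 CPM at day 3 (8.35). Atf3, a stress transcription factor, was up by 7.08 and 3.17. Plin2, which coats lipid droplets, rose from 25.1 to 2672 CPM at day 1, and Sox9, a transcription factor of repairing tubules, from 0.418 to 26.9 CPM. Within day 1, 1 of the 20 was called higher and 4 lower in the 3-digit libraries, against 35.0% of all genes called.

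Genes of other proteins measured in urine or plasma were more mixed. Of 28 tested, 8 were called higher and 7 lower at day 1, and 9 higher and 8 lower at day 3, against 42.1% and 33.3% of all genes. Il6, an inflammatory cytokine with no reads at day 0, averaged 6.34 CPM at day 1 and was called higher. Cyr61, a secreted matrix protein of the CCN family, rose by 4.96 at day 1 and 2.71 at day 3, and Gsta1, a glutathione transferase, by 4.25 and 5.12. Lgals3, the lectin galectin-3, rose by 3.20 at day 1, and Chil1, a chitinase-like protein, by 3.87 at day 3. Egf, made in the distal nephron, fell from 1995 to 306 CPM at day 1 and 85.5 CPM at day 3. Calb1, a calcium-binding protein of the distal tubule, fell by 1.88 and 2.84, and Umod, the uromodulin gene of the thick ascending limb, by 0.57 and 1.32. Timp2 and Igfbp7, read together as markers of cell cycle arrest, were not called at day 1, and at day 3 Timp2 was called higher by 0.68 and Igfbp7 lower by 0.48.

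Receptors and partners of the encoded proteins were counted next. Of 25 tested, 13 were called higher and 5 lower at day 1 and 13 higher and 4 lower at day 3, with 11 higher at both days, against 42.1% and 33.3% of all genes called in either direction. The largest called change was that of Cd300lf, an immune receptor of myeloid cells, which averaged 0.0456, 2.77 and 6.57 CPM at days 0, 1 and 3. Trem2, a lipid receptor of macrophages that binds clusterin, was called at day 3, at 3.16 CPM against 0.280 CPM at day 0. Lrp2 and Cubn, the endocytic receptors megalin and cubilin that take up filtered NGAL, cystatin C and L-FABP, were both called lower at both days, Lrp2 from 3247 to 729 CPM at day 1 and Cubn from 546 to 180 CPM. Slc22a17, an NGAL receptor of the distal nephron, was called lower at day 3 (-1.15, adjusted p = 0.00894, edgeR). The osteopontin receptor Cd44 rose by 3.59 at day 1 and 3.78 at day 3, and the integrin subunit Itgb3 by 2.73 and 2.99. Mmp9, the protease that NGAL binds, rose by 5.14 and 5.95. Ctsl, a target of cystatin C, rose by 2.24 and 1.93. Pank1, the first enzyme of the coenzyme A pathway to which vanin-1 returns pantothenate, was called lower by 1.56 at day 1 and 1.13 at day 3.

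Fabp1 and Vnn1 were read beside other targets of PPAR alpha, the receptor that drives fatty acid oxidation. Of 19 tested, 6 were called higher and 1 lower at day 1, and 12 higher and 1 lower at day 3. Of all genes 42.1% and 33.3% were called, so that the share at day 1 lay below that of all genes and the share at day 3 above it. Their median log2 fold change was 0.37 at day 1 and 1.196 at day 3, against 0.00727 and 0.0542 over all genes. Cyp4a14, a fatty acid hydroxylase, averaged 10.7 CPM at day 0, 257 CPM at day 1 and 1427 CPM at day 3. Pdk4, which restrains glucose oxidation, rose by 4.74 at day 1 and 3.74 at day 3, and Acot2, a mitochondrial thioesterase, by 1.82 and 1.36. Acadm, a beta-oxidation enzyme, fell by 1.42 and 1.59. Between the formats of day 1, 9 of the 19 were called higher in the 3-digit libraries and none lower, against 35.0% of all genes called, and Vnn1 was called higher too. Between the formats of day 3, 2 were called higher and 6 lower in the 3-digit libraries, where 18.5% of all genes were called. Against day 0, 5 of the 19 were called higher and 5 lower (median -0.28) in the 1-digit libraries of day 1. This share lay below the 58.5% of all genes called there. The 3-digit libraries of day 1 had 11 higher and 1 lower (median 0.75), where 41.6% of all genes were called. Cyp4a10 averaged 1112 CPM there against 133 CPM in the 1-digit libraries. Ppara itself was called only at day 3 (1.19, adjusted p = 0.0242, edgeR).

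**Figure D5:**
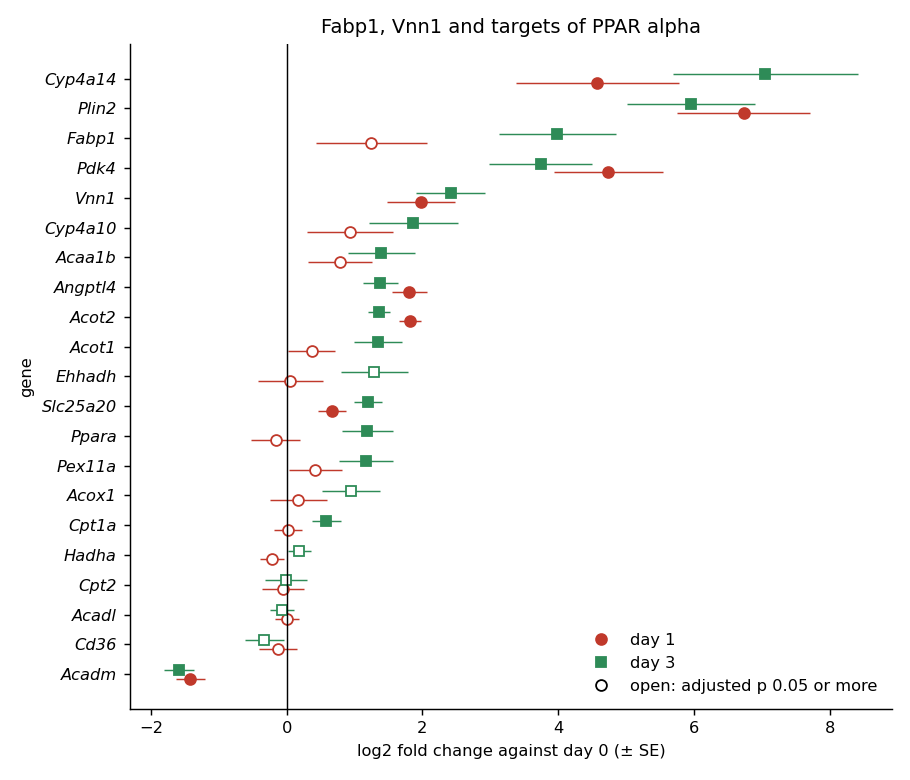
Log2 fold change against day 0 with its standard error for Fabp1, Vnn1 and 19 targets of PPAR alpha at day 1 (circles) and day 3 (squares), with open symbols where the adjusted p was 0.05 or more. Fabp1 moved from 1.25 at day 1 to 3.99 at day 3, and Vnn1 from 1.98 to 2.42.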

How the data were processed

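The data are whole-kidney RNA-seq libraries with 4 samples at day 0 and 5 each at days 1 and 3. The authors deposited, for each library, STAR's table of whole-number read counts for each gene, made from uniquely mapped reads. Per the submitters' processing notes, reads were trimmed with Trimmomatic and aligned with STAR to mm10, and versions and annotation are not given in the sources used here. The column for the opposite strand held 98.5% to 98.7% of strand-assigned reads and was used. STAR's 4 summary entries without a gene, 29.0% to 38.3% of a library, were left out.

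Genes were filtered with filterByExpr by day and scaled by trimmed mean of M-values (TMM), and all 14 libraries were fitted with edgeR's quasi-likelihood test (edgeR 4.0.16, limma 3.58.1, R 4.3.3) with a term for the day, or for day and number format. A call is a Benjamini-Hochberg adjusted p below 0.05 over 14300 genes. SE is the absolute log2 fold change over the square root of F. CPM use TMM library sizes, and log2 CPM use a prior count of 2. The test was checked on simulated counts. Replicate pairs differed by more than sampling noise (chi-square over degrees of freedom of 5.69 to 228 in 26 pairs). The members and the 19 gene lists were chosen with earlier results of these data known. Named were all members, from each list those called with the largest change against day 0 (at most 4 at each day), partners and relatives that a member's role turns on, and the 3 genes nearest to each member. Slc34a1, Umod, Timp2, Igfbp7, Acadm, Ppara, C3, Elane and Mpo, and hepatocyte and enterocyte genes that were not called, were named after their values were seen. Alternatives were other filters, RLE size factors or plain totals in place of TMM, the unstranded column, DESeq2 1.42.0, a log2 limit of 1, only the days compared, a replicate block, the format as a term, 1 format only, a prior count of 0.5 and leaving out each library. Gene positions are those of GENCODE M21 on GRCm38, the assembly of mm10. Sequences are from RefSeq.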

Additional observations from a re-analysis of the deposited data

Results flagged for a closer look

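The number format effect of day 1 minus that of day 3 passed the test of the difference itself for 3 of the 7 genes. It was 4.77 on the log2 scale for Havcr1, 2.49 for Spp1 and 2.39 for Vnn1. Over the 27 groups of log2 CPM values in which a stray library was looked for, 1 was found and 1.35 would be found by chance. This was Cst3 in replicate 3 of day 3, at 7.89 on the log2 CPM scale, where the other 4 libraries of day 3 had 8.20 to 8.28.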

How the results depend on the processing

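Fold changes of Lcn2, Spp1, Clu and Vnn1 against day 0 kept their direction and their call under every alternative at both days, as did Fabp1 at day 3 where it could be tested. Counts of members called were 5 against day 0 at both days in the main fit, and leaving out 1 library gave 4 to 5 at day 1 and 5 at day 3. The counts moved under some alternatives. Havcr1 kept its call at day 1 under 7 of 11 and gained a call at day 3 under 3 of 11. For day 3 against day 1 the count of 1 became 0 with at least 10 counts in every library, where Fabp1 was no longer tested, 0 with only the 2 days compared and 5 with only 1-digit libraries, and ran from 0 to 1 with 1 library left out. Between the formats, with 1 library left out, the count was 2 to 4 within day 1 and 0 to 2 within day 3.

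Havcr1 at day 1 was lost as a call with the format as a term (0.95, adjusted p = 0.467) or only the 2 days (3.27, 0.0543), and turned to -0.45 with only 1-digit libraries. With 1-digit libraries only, Havcr1 from day 1 to day 3 was 2.32. Cst3 at day 1 was -0.0073 with only 3-digit libraries, and was called with the format as a term (0.36, adjusted p = 0.0264), with only 1-digit libraries (0.46, 0.00243) and without replicate 2 of day 1 (0.35, 0.0415). With only 3-digit libraries, day 3 against day 1 was -1.30 for Lcn2, -0.64 for Spp1, -0.13 for Clu, 0.13 for Cst3 and -0.57 for Vnn1. The same comparison gave -0.0033 for Clu with RLE and -0.0033 with DESeq2, 0.067 for Cst3 without TMM and -0.024 for Lcn2 with the format as a term. Causes were not tested. TMM left the median gene at 0.01 (day 1) and 0.05 (day 3), and total counts at -0.01 and 0.19.

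With 1 library left out, the values that changed sign, none of them called, ran from -0.31 to 0.39 for Lcn2 and -0.11 to 0.17 for Clu (day 3 against day 1), from -0.056 to 0.44 for Clu (formats, day 1), and, between the formats of day 3, from -0.43 to 0.86 for Havcr1, -0.33 to 0.25 for Clu, -0.19 to 0.0026 for Cst3, -1.31 to 2.31 for Fabp1 and -0.65 to 0.037 for Vnn1.

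The labels give same-numbered libraries of different days no link beyond the number. The correlation of their deviations from the day means ran from -0.175 to 0.261 (median 0.056), over 0.1 in 4 of 13 pairs. For pairs with unlike numbers the median was -0.0047, with 10 of 52 over 0.1. These values cannot settle whether same-numbered libraries are paired. A replicate block gave 5162, 4103 and 2044 genes called for the 3 day comparisons, against 6020, 4757 and 2276 without it, and 4, 5 and 1 members. Under it Havcr1 at day 1 was 2.39 (adjusted p = 0.135), and Lcn2 and Clu from day 1 to day 3 were -0.093 and -0.013. Fabp1 at days 0 and 1 rests on 4 to 82 reads, and Lcn2 at day 0 on 27 to 55, so the size of their rises is limited by depth.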

Other observations

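Genes of the acute phase response, which in the body at large are driven by interleukin 6, were read in the same kidneys. Of 18 tested, 13 were called higher at day 1 and 14 at day 3, with none lower, where 42.1% and 33.3% of all genes were called in either direction, and with medians of 3.29 and 3.49 on the log2 scale. Saa1, a serum amyloid A gene, had no reads at day 0 and averaged 4.40 CPM at day 1 and 3.34 CPM at day 3, and Fgb, a fibrinogen chain, averaged 0.0604, 1.66 and 4.40 CPM. Socs3, a feedback inhibitor of cytokine signals, rose from 1.74 to 91.3 CPM at day 1, and Timp1, an inhibitor of matrix proteases, from 0.191 to 30.3 CPM. Between the formats of day 1, 8 of these genes were called higher with 3 digits and 2 lower, against 35.0% of all genes. C3, the central complement component, averaged 119 CPM over replicates 1 and 2 of day 1 and 20.2 CPM over replicates 3 to 5, against 28.1 CPM at day 0.

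Relatives of the other members were also read. Of 10 tested genes of the TIM, cystatin, fatty acid binding protein, vanin and lipocalin families, 4 were called higher at day 1, and 3 higher and 1 lower at day 3, which is near the 42.1% and 33.3% of all genes called. Cstb, an inhibitor of cathepsins inside cells, rose by 2.25 and 2.09 and Cst6, a secreted cystatin, by 2.03 and 3.31, while Cst3 was called at neither day. Ptgds, a lipocalin that makes prostaglandin D, was lower by 1.56 on the log2 scale at day 3. Fabp3, Fabp4 and Fabp5 were called at neither day, with log2 fold changes of -0.05 to 0.75.

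Markers of kidney segments and of other cell types are given beside the 42.1% (day 1) and 33.3% (day 3) of all genes called in either direction. Of 8 genes of the loop of Henle and distal tubule, 5 were called lower at day 1 and 7 at day 3, and of the 18 proximal tubule genes 5 and 9, with none higher in either list. Slc12a1, the salt transporter of the thick ascending limb, fell from 1776 to 147 CPM at day 1 and 282 CPM at day 3, Kcnj1 from 368 to 47.0 and 101 CPM, and Pvalb from 48.1 to 1.28 CPM at day 3. Of the proximal tubule genes Aqp1 fell by 1.63 and Hnf4a by 1.02 at day 1, and at day 3 Slc7a13 fell by 3.90, Kap by 2.40, Ggt1 by 1.91 and Acsm2 by 1.73. The summed level of 8 fibroblast genes was 141 to 150 CPM at day 0, 165 to 540 CPM at day 1 and 572 to 1427 CPM at day 3, where 6 of the 8 were called higher. These were led by Col3a1 (3.95 on the log2 scale), Col1a1 (3.75), Acta2 (3.24) and Col1a2 (2.82), and at day 1 Acta2, Col3a1 and Pdgfrb were called higher, by 1.91, 1.61 and 1.53. Of 7 urothelium genes none was called at day 1 and 1, Upk2, was called lower at day 3. Their summed level was 99.8 CPM in replicate 2 of day 1, 14.7 CPM in replicate 1 and 5.09 to 7.96 CPM in replicates 3 to 5, and 4 of the 7 were called higher in the 3-digit libraries, against 35.0% of all genes. Of 5 podocyte genes none was called at day 1 and 1, Synpo, was called higher at day 3. Of the collecting duct list 2 of 8, Slc4a1 and Hsd11b2, were called lower at day 1 and 4 at day 3, with Aqp3 and Scnn1g. Of the endothelium list 1, Cdh5, was called higher and 2, Tek and Ehd3, lower at day 1 and none at day 3. In the 1-digit libraries of day 3, 6 of the 8 were called higher than day 0, where 53.7% of all genes were called. Between the formats of day 3, 6 were called lower in the 3-digit libraries, where 18.5% of all genes were called. Of the hepatocyte list 1 of 5 was called higher at day 1, and 1 higher and 1 lower at day 3, namely Fgb at both days and Cyp2e1, and of the enterocyte and adipocyte lists 2 and 3 genes were tested and none was called at day 1 or day 3.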
